A study of Gallus gallus with 16 samples.

Results

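Trimethylation of histone H3 at lysine 4 (H3K4me3) was compared between lens fiber cells of embryonic chick lenses held at 1% oxygen (hypoxia) and at 21% oxygen (normoxia). The comparison rests on 47275 H3K4me3 peaks of the 108520 peaks listed for the whole series, 24987 in the hypoxia list and 22288 in the normoxia list. The peaks were taken by the mark and condition that the table names, with each interval counted once per list. Peaks were then tied to genes by the gene ID that the table gives. For each gene the widest peak within 1000 bp of the transcription start site (TSS) of any of its listed transcripts is called its TSS peak. The summed width of all peaks annotated to the gene is its covered length.

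The cells came from White Leghorn embryos at embryonic day 13. Whole lenses were kept in culture dishes at 1% or at 21% oxygen, for 2 h per the labels, and the fiber cell mass was then dissected away from the epithelium. Each of the 3 hypoxia libraries and the 3 normoxia libraries pooled fiber cells from 10 to 15 lenses. The extraction text speaks of 0 or 2 h of hypoxia, so whether the lenses at 21% oxygen also spent 2 h in culture cannot be told. CUT&RUN was used, in which an antibody guides a nuclease to the mark and the DNA it cuts free is sequenced.

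H3K4me3 marks nucleosomes around the starts of active and poised genes. It is written by the KMT2 and SETD1 methyltransferase complexes and its trimethyl form is removed by the KDM5 demethylases, which use molecular oxygen in the reaction. The KDM1 enzymes act on the mono- and dimethyl forms. Many promoters carry the mark as a pair of nucleosome groups on either side of a gap at the TSS, and wide domains are known at genes that define a cell type. Lens fiber cells lie far from any blood vessel, fill with crystallins and shed their organelles as they mature.

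Each condition has 1 list, with no value per library and no peak height, and the read depth behind the lists is unknown. Peak width is therefore the only measured quantity, no difference below has a replicate check, and no test was run. A difference of at least 2-fold in either direction serves as a call of size only. The 95% intervals cover the counting of genes, which are not replicates of a condition and in part share peaks: 2111 of the genes compared shared their hypoxia TSS peak with another gene and 2061 their normoxia TSS peak. Coordinates are 1-based and refer to galGal6.

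H3K4me3 covered more sequence in hypoxia, both in TSS peaks, which held most of the bases of either list, and in other peaks. The hypoxia list covered 27.04 Mb in TSS peaks and 15.35 Mb in other peaks, against 24.63 Mb and 13.96 Mb in the normoxia list. TSS peaks numbered 9397 in hypoxia and 9146 in normoxia, with median widths of 2144 and 2043 bp. Peaks elsewhere ran the other way in width: the 15590 of the hypoxia list had a median of 547 bp and the 13142 of the normoxia list a median of 614.5 bp. The lists had 29.6 Mb in common, which was 69.8% of the hypoxia bases and 76.6% of the normoxia bases. Of the bases in 1 list alone, 12.8 Mb were in hypoxia and 9.02 Mb in normoxia. TSS peaks held 5.10 Mb of them in hypoxia and 2.91 Mb in normoxia, and other peaks the larger part, 7.71 and 6.11 Mb. Most of the bases in 1 list alone lay in peaks that overlapped a peak of the other list, 7.65 Mb in hypoxia and 5.10 Mb in normoxia. Separate peaks held the remaining 5.16 Mb and 3.92 Mb.

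Gene by gene, the TSS peak was slightly wider in hypoxia for most genes, though by less than the scatter from gene to gene. Among the 9366 gene IDs with a TSS peak in both lists, the median width was 2429 bp in hypoxia and 2263.5 bp in normoxia, and the median log2 ratio of hypoxia over normoxia was 0.11 (95% interval 0.10 to 0.12). The peak was wider in hypoxia at 60.8% of the genes (59.8 to 61.8%). The quartiles of the log2 ratio were -0.18 and 0.43, and its 5% and 95% quantiles were -0.82 and 1.17. At least 2 times the width was found in hypoxia at 674 genes, which is 7.2% of those compared, and at most 1/2 of it at 316 genes (3.37%). With log2 ratios centred on the median of all genes, the counts were 543 and 405, so the list-wide shift of 0.11 makes up part of the imbalance.

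The width of a gene's own peak and the presence of the mark at its start are different quantities. A peak can be split in 1 list and whole in the other, or be assigned to a neighbouring gene in 1 list. The TSS peaks of the 2 lists can also lie at different starts of the same gene. Of the hypoxia peaks, 817 (3.27%) overlapped 2 or more normoxia peaks, and of the normoxia peaks, 722 (3.24%) overlapped 2 or more hypoxia peaks. To set these cases apart, the bases that each list covers within the joint extent of a gene's TSS peaks were also counted, whichever gene they were assigned to. For a gene with several starts this extent can take in separate places. Over the same 9366 genes these covered bases at the same place had medians of 2503 bp in hypoxia and 2326.5 bp in normoxia, with a median log2 ratio of 0.11. They were higher in hypoxia at 61.1% of genes, at least 2 times as high at 450 genes (4.8%) and at most 1/2 as high at 203 genes (2.17%). Of the 674 genes with a peak at least 2 times as wide in hypoxia, 439 (65.1%) were also past 2-fold at the same place. Of the 316 with the narrower peak, 197 (62.3%) were.

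**Figure D1:**
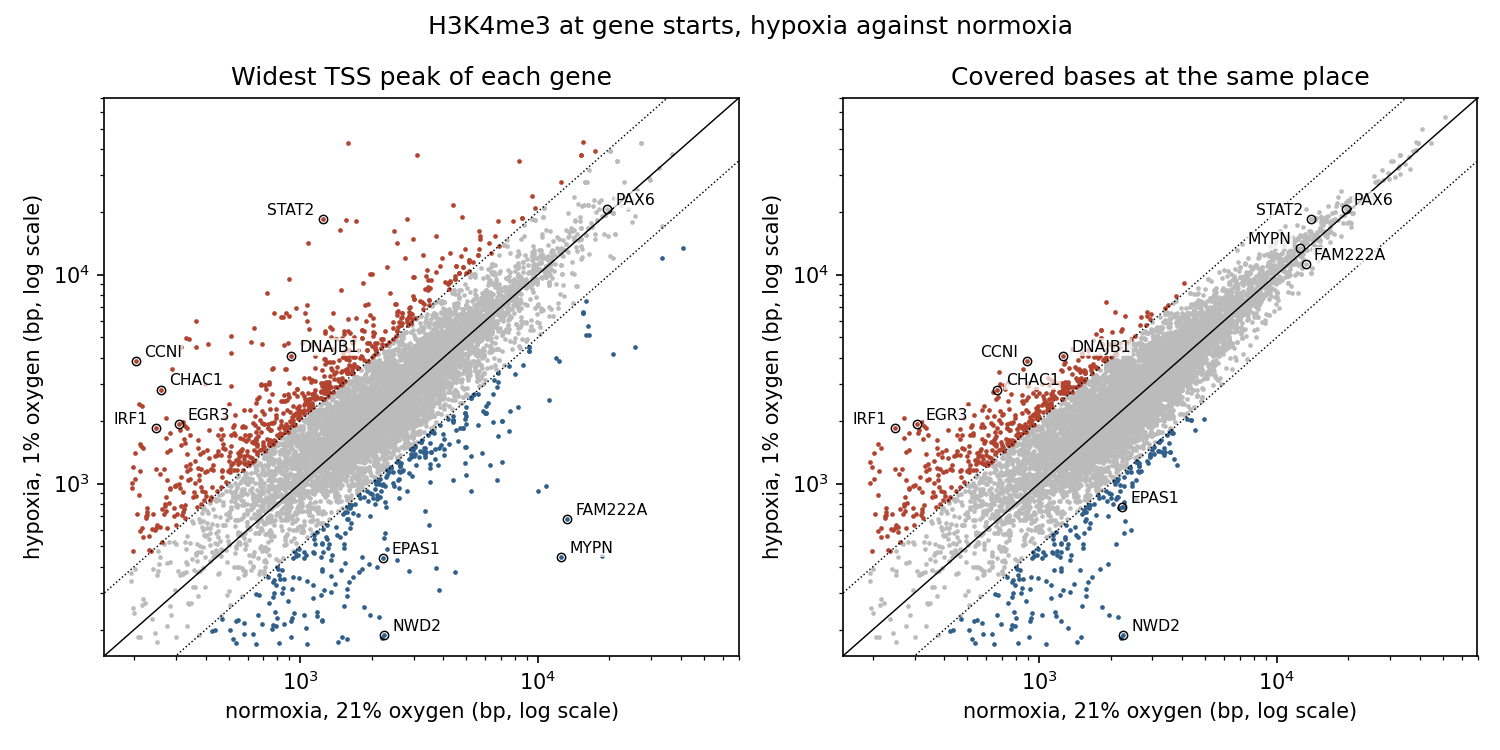
Hypoxia (vertical axis) against normoxia (horizontal axis) for each of the 9366 genes with a TSS peak in both lists, in bp on log scales. Left, the width of the widest TSS peak, and right, the bases covered at the same place. The solid line marks equal values, dotted lines mark 2-fold, red points are at least 2-fold higher in hypoxia and blue points at least 2-fold lower, and circles mark the genes named. The far points STAT2, MYPN and FAM222A of the left panel lie near the solid line on the right.

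The scatter of width and of covered bases shows how far the most extreme width ratios depended on this distinction. The 10 genes with the highest width ratio included CCNI, DGCR8, STAT2, NOP14, CPLANE2, FLAD1, ABHD14A, ZC3H7B and TPM4, with log2 ratios from 3.52 to 4.24. STAT2, a transcription factor of interferon signalling, had a TSS peak of 18518 bp in hypoxia and of 1247 bp in normoxia. That hypoxia peak, at chr33:6917043-6935560, is also the TSS peak of MIP, the water channel of fiber membranes, whose normoxia peak was 9445 bp wide. At the same place both genes had 18518 bp in hypoxia and 13979 bp in normoxia, a log2 ratio of 0.41. DGCR8, which encodes a partner of the microRNA processing enzyme DROSHA, had a peak of 6003 bp in hypoxia and 365 bp in normoxia, but 6003 and 4444 bp at the same place. Of the 10 genes, CCNI (cyclin I) with 3842 bp in hypoxia and 888 bp in normoxia, and CPLANE2, a gene for the assembly of cilia, with 4503 and 2023 bp, kept a ratio past 2-fold at the same place.

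The lowest width ratios behaved alike. The 10 genes were MYPN, FAM222A, MXD3, METTL27, NWD2, UBTF, PLEKHA1, GAAGSD, TFPI2 and ARHGAP40. MYPN, a gene for a sarcomere protein, had a TSS peak of 445 bp in hypoxia and 12534 bp in normoxia, yet 13350 and 12534 bp at the same place. Its 2 TSS peaks lay at different starts and did not overlap (chr6:11206682-11207126 in hypoxia and chr6:11185402-11197935 in normoxia). The TSS peaks of PLEKHA1 and TFPI2 did not overlap between the lists either. FAM222A had peaks of 676 bp in hypoxia and 13231 bp in normoxia, and 11194 and 13231 bp at the same place. UBTF, a factor of ribosomal RNA gene transcription, had peaks of 379 bp in hypoxia and 4471 bp in normoxia, and 4204 and 4471 bp at the same place. METTL27, NWD2 and ARHGAP40 were past 2-fold by both measures. For this reason the genes below are described by the bases covered at the same place unless a width is named.

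The genes just inside and just outside the 2-fold limit show what it separates. GRSF1, an RNA-binding protein gene of mitochondria, had 2985 bp in hypoxia and 1492 bp in normoxia and was inside. CDC42, a small GTPase gene of cell polarity, had 5944 and 2974 bp and was outside. In the other direction TCF7, a Wnt effector gene, had 1031 bp in hypoxia and 2065 bp in normoxia and was inside. POLE, a DNA polymerase gene, had 492 and 982 bp and was outside.

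Whether a start differed 2-fold went with how wide its peak was. With genes in 10 classes of mean TSS peak width, the narrowest class (196 to 983 bp) had 15.3% of genes at least 2 times higher in hypoxia and 10.6% at most 1/2 as high. The next class, up to 1368.5 bp, had 9.80% and 3.62%. The widest class (5703 to 37211.5 bp) had none of its 937 genes in either direction. The median log2 ratio did not follow this order, lying between 0.06 and 0.18 in every class, while the distance between the quartiles of the width ratio was 1.07 in the narrowest class and 0.46 in the widest.

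**Figure D2:**
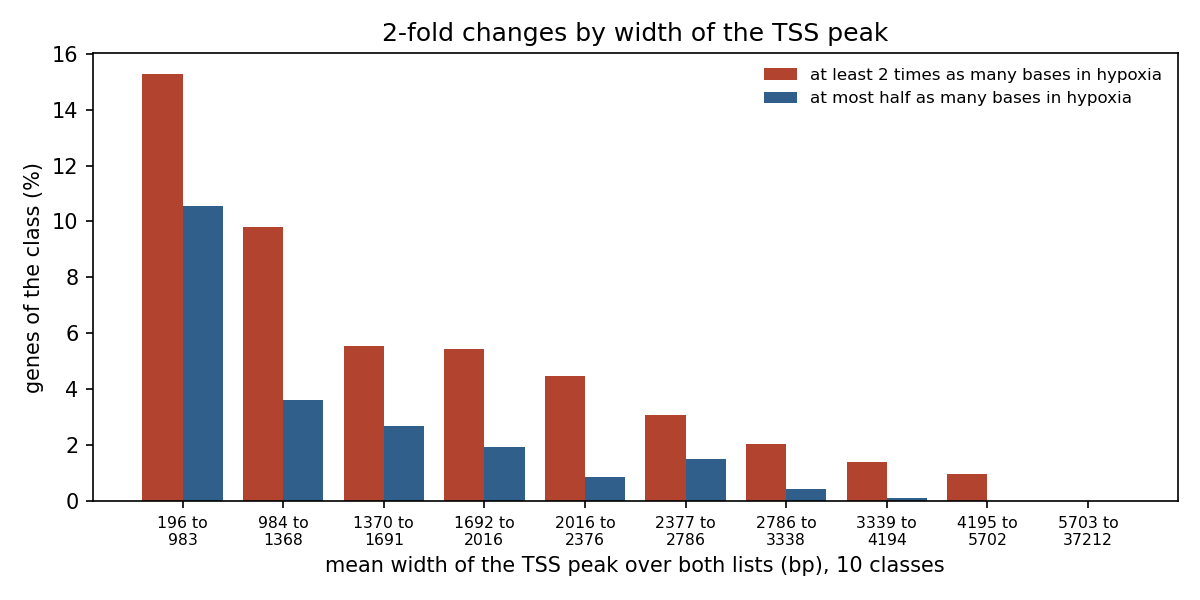
Genes past 2-fold at the same place (% of the class, vertical axis) in 10 classes of the mean TSS peak width over both lists (bp, horizontal axis), higher in hypoxia in red and lower in blue. Both shares are highest in the narrowest class, 15.3% and 10.6%, and 0 in the widest.

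The extra width lay on both sides of the gene start, and the start itself was covered more often. A TSS position could be inferred from the signed distances in the table for 12829 transcripts. The inference needs listed peaks of either mark that do not cross the TSS, and transcripts without such peaks are left out. Among the rest, 5297 genes had a peak across the inferred TSS in both lists. Upstream, these peaks reached a median of 920 bp in hypoxia and 807 bp in normoxia, and downstream 1727 and 1632 bp. The median difference of hypoxia minus normoxia was 79 bp upstream (quartiles -129 and 365 bp) and 76 bp downstream (-233 and 461 bp). The upstream edge lay farther out in hypoxia at 60.7% of genes (59.4 to 62.0%) and the downstream edge at 57.5% (56.2 to 58.8%). Both edges lay farther out in hypoxia at 1881 genes (35.5%) and in normoxia at 879 (16.6%). An upstream edge at least 500 bp farther out was found in hypoxia at 978 genes and in normoxia at 454.

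Position by position, the lists differed most just upstream of the TSS. Over 7249 genes with an inferred start and a TSS peak in both lists, 82.6% in hypoxia and 76.7% in normoxia were covered at the TSS itself. Since an inferred start needs listed peaks off the TSS, these shares may differ in the genes left out. At 300 bp upstream the shares were 74.6% and 67.4%, the largest difference in the window, 7.21 percentage points. Inside the gene, at 500 bp, they were 82.7% and 80.7%, a difference of 1.96 points. At 5000 bp upstream they were 12.2% and 10.3%, and at 5000 bp downstream 13.5% and 11.5%, so the hypoxia list was higher across the window, also far from the start. The acetyl mark H3K27ac, listed for the same conditions from 2 libraries each, covered 26.5% of these genes in hypoxia and 11.5% in normoxia at 300 bp upstream. At 500 bp inside the gene its shares were 34.7% and 16.9%, a wider gap, unlike H3K4me3. The H3K27ac lists hold 45734 peaks in hypoxia and 15511 in normoxia.

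**Figure D3:**
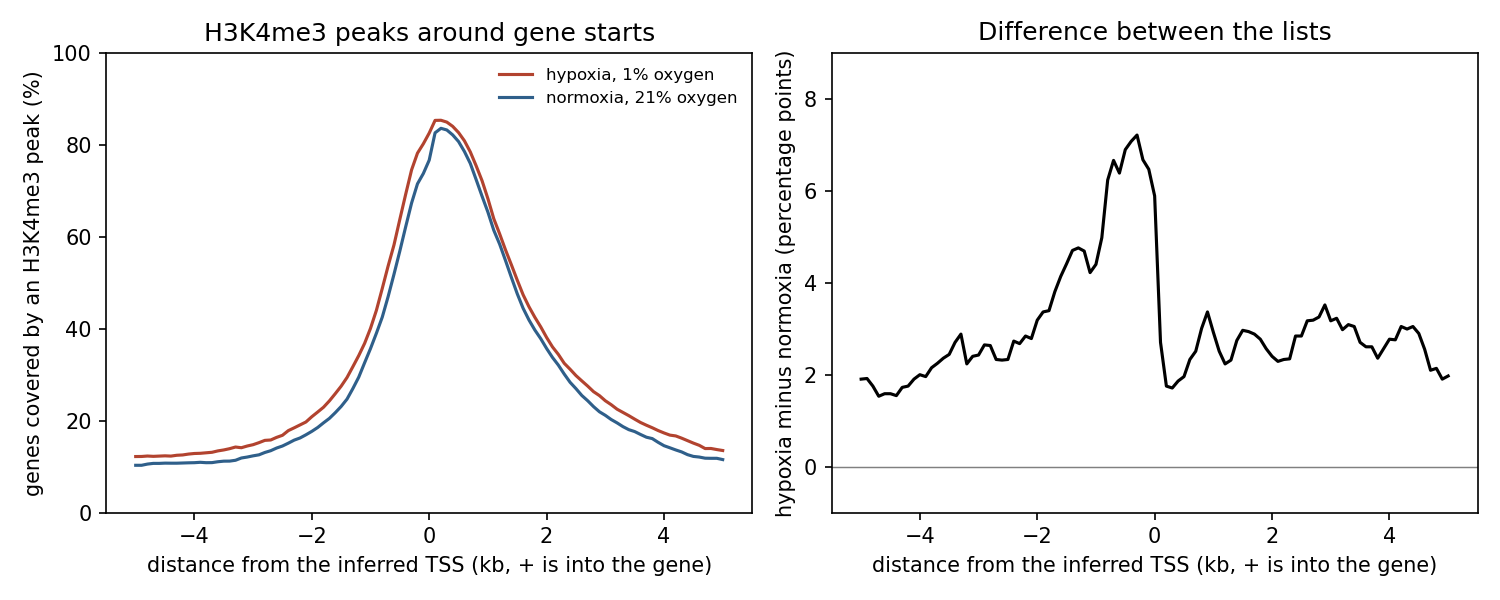
Share of 7249 genes covered by an H3K4me3 peak (%, left) at each distance from the inferred TSS (kb, positive into the gene), hypoxia in red and normoxia in blue, and the difference of hypoxia minus normoxia in percentage points (right). The difference is largest, 7.21 points, at 300 bp upstream and smaller inside the gene.

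The shift was spread over the chromosomes. On each of the 30 chromosomes with at least 50 compared genes the median log2 ratio at the same place was above 0, from 0.02 on chromosome 22 to 0.21 on chromosome 26. On 29 of them more genes were past 2-fold in hypoxia than in normoxia, and on chromosome 22 the counts were 4 and 4.

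Among starts with a mean of at least 1000 bp, those with the highest ratio at the same place had a kilobase or more in hypoxia and a fragment in normoxia. This pattern is fixed by choosing genes for a high ratio at such a mean, so it describes the choice. IRF1, a transcription factor induced by interferons, had 1838 bp in hypoxia (chr13:17595834-17597671) and 247 bp in normoxia, a log2 ratio of 2.90. EGR3, a zinc finger factor of the early growth response family, had 1933 bp in hypoxia (chr22:1507036-1508968) and 308 bp in normoxia (chr22:1507990-1508297), a log2 ratio of 2.65. In both genes the hypoxia peak crossed the TSS and the normoxia peak did not, lying 8 bp from it at IRF1 and 47 bp from it at EGR3. CHAC1, which encodes an enzyme that degrades glutathione, had 2816 bp in hypoxia and 668 bp in normoxia, there in 2 pieces. FAM107A, an actin-binding protein gene, had 2980 and 682 bp.

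The other genes of the 16 highest had ratios of like size. NME5, a gene of motile cilia, had 1736 bp in hypoxia and 284 bp in normoxia. DUSP15, a phosphatase gene, had 1812 and 313 bp, and KIF2C, a kinesin that takes microtubules apart at centromeres, 1754 and 309 bp. PCDHAC1, a clustered protocadherin, had 3430 bp in hypoxia and 681 bp in normoxia. C30H19orf53, ZNF131, ATRAID, ENTPD7, MCCC2L, CCNI and VWA3A also belonged to the group. The widest hypoxia peak of these genes lay over the TSS in 12 of 16, against 2 of 16 for the widest normoxia peak. This follows in part from the choice of the genes by their covered bases, since a fragment spans fewer positions than a whole peak. An H3K27ac TSS peak was listed for 12 of 16 in hypoxia and 4 of 16 in normoxia, beside 67.8% and 39.5% of all genes with an H3K4me3 TSS peak in both lists. Among the 450 starts at least 2 times higher in hypoxia, the shares were 58.9% and 27.6%.

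Of the same starts, those with the lowest ratio had the reverse pattern, a whole peak in normoxia and a fragment in hypoxia, which the choice fixes likewise. NWD2 had 188 bp in hypoxia and 2255 bp in normoxia (chr4:69961321-69963575), a log2 ratio of -3.58, and the hypoxia fragment lay at -377 bp from the TSS, where minus is upstream. METTL27, which encodes a methyltransferase-like protein, had 183 and 2215 bp, and ARHGAP40, a regulator of small GTPases, 229 and 2149 bp. MYB, a transcription factor of progenitor cells, had 236 bp in hypoxia and 1962 bp in normoxia (chr3:55802465-55804426). SOX21, a transcription factor of neural and placodal progenitors, had 414 and 1942 bp. GTSE1, a gene of the G2 and S phases of the cell cycle, had 257 bp in hypoxia and 1846 bp in normoxia.

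The 16 lowest of these starts, which again have a mean of at least 1000 bp, also included IGFBP4, a binding protein of insulin-like growth factors, with 512 bp in hypoxia and 2110 bp in normoxia, and IDH3B, a subunit of a citric acid cycle enzyme, with 582 and 2282 bp. SFRP2, a secreted modulator of Wnt signals, had 511 bp in hypoxia and 1530 bp in normoxia, and ASXL1, a chromatin regulator, 845 and 2565 bp. The widest hypoxia peak of the 16 genes lay over the TSS in 4, and the widest normoxia peak in 15, which again follows in part from how the genes were chosen. H3K27ac TSS peaks were listed for 3 of the 16 in hypoxia and 0 in normoxia, beside 34.0% and 17.7% of the 203 starts at most 1/2 as high.

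**Figure D4:**
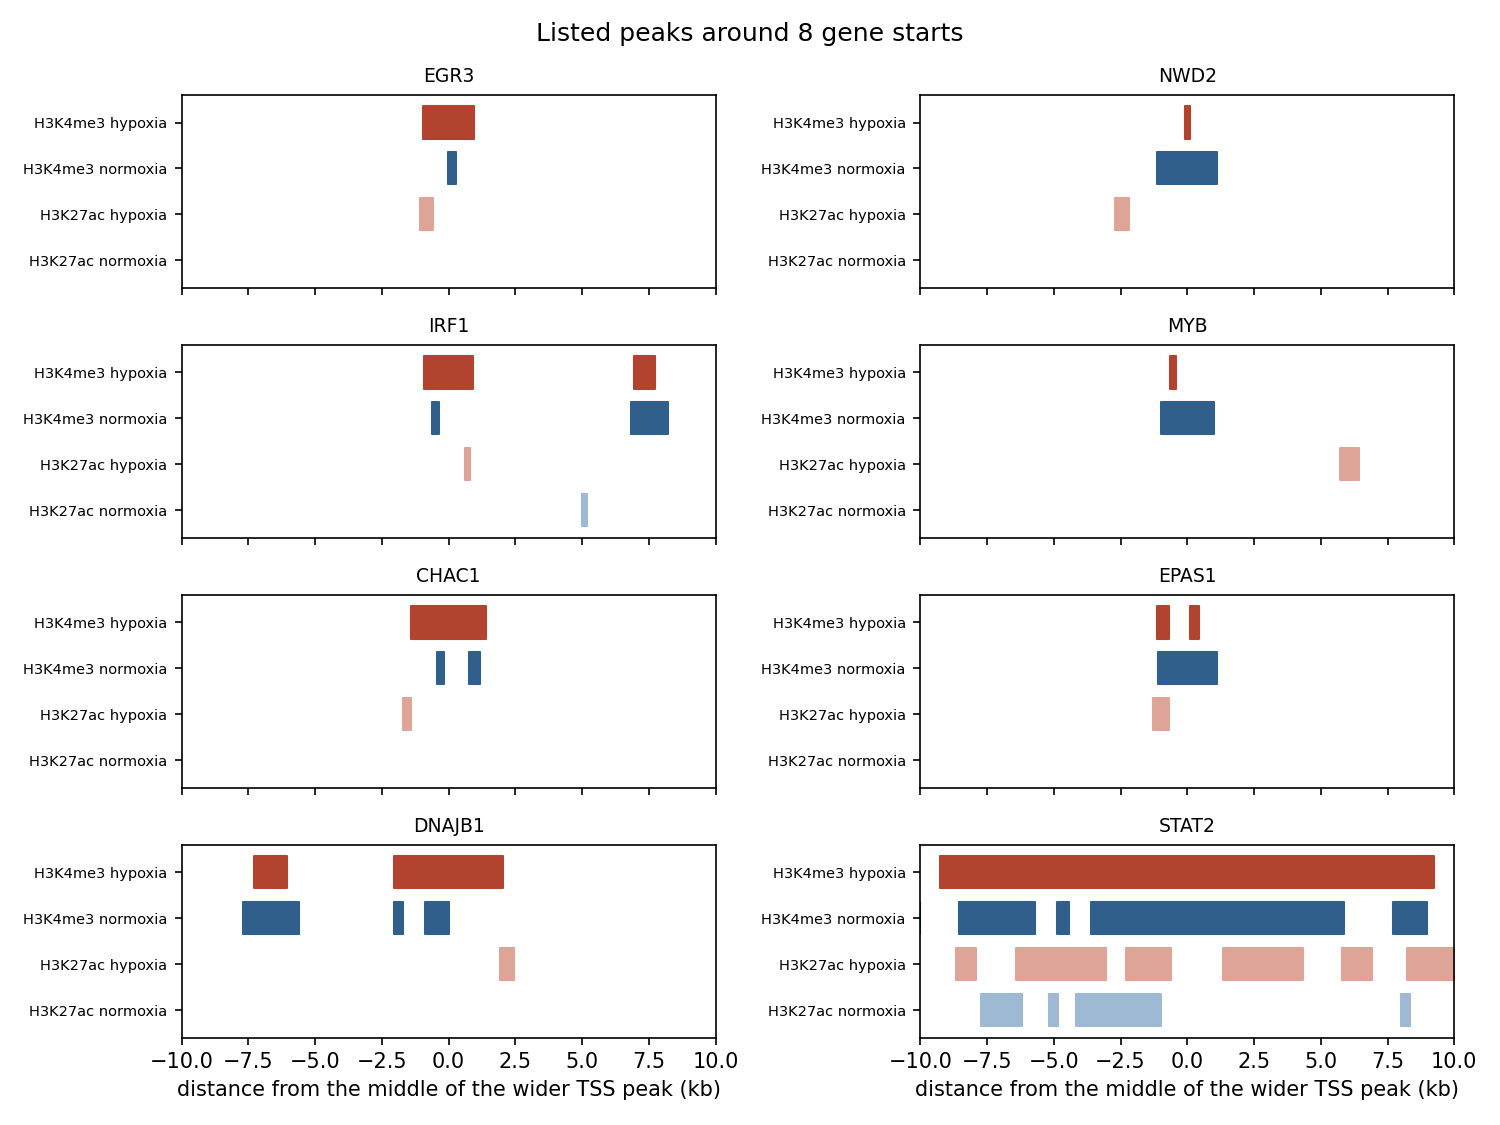
Listed peaks of H3K4me3 (hypoxia above, normoxia below it) and of H3K27ac (lower pair, hypoxia above normoxia) around 8 gene starts, against distance from the middle of the wider TSS peak (kb, in chromosome direction). EGR3, IRF1, CHAC1 and DNAJB1 have a wide H3K4me3 peak in hypoxia where normoxia has narrow fragments, and NWD2, MYB and EPAS1 have the reverse. At STAT2 the hypoxia peak spans several normoxia peaks.

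EPAS1 was the member of the oxygen-sensing genes that differed most. It encodes the alpha subunit of HIF-2, a factor that is stabilised when oxygen is low. Its start had 771 bp in hypoxia, in 2 fragments of which the wider was 440 bp, and a single peak of 2234 bp in normoxia (chr3:26670626-26672859), a log2 ratio of -1.53. H3K27ac had a TSS peak of 616 bp there in hypoxia and none in normoxia, as the peak maps show, in lists of 45734 H3K27ac peaks in hypoxia and 15511 in normoxia. None of the other 10 subunits and sensors with a start in both lists was past 2-fold at the same place. Over all genes 4.8% were at least 2 times higher and 2.17% at most 1/2 as high. The 11 genes are too few to set apart from these shares. The HIF beta subunit ARNT had 4295 bp in hypoxia and 2575 bp in normoxia, and HIF1A, the alpha subunit of HIF-1, 9451 and 8614 bp. EGLN1, a prolyl hydroxylase that marks HIF alpha for destruction, had 4494 bp in hypoxia and 4729 bp in normoxia. At VHL, which targets hydroxylated HIF alpha for destruction, the peak width was 7167 bp in hypoxia and 1868 bp in normoxia, but the same place held 7167 and 5599 bp. The median of the 11 genes was 0.15, beside 0.11 over all genes.

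The classical targets of HIF lay around the median of all genes. Of 38 with a start in both lists, 27 were higher and 11 lower in hypoxia, with a median log2 ratio of 0.11. Past 2-fold were ERO1A, an oxidase of the endoplasmic reticulum that makes disulfide bonds, with 4650 bp in hypoxia and 1834 bp in normoxia, and the glycolytic enzyme gene TPI1, with 2887 and 1395 bp. These are 2 of 38 genes, where 4.8% of all genes were that much higher. Targets with the mark lower in hypoxia included PLOD1, a collagen-modifying hydroxylase, with 4654 bp in hypoxia and 6495 bp in normoxia. The lactate dehydrogenase gene LDHA had 3613 and 4302 bp. The glucose transporter gene SLC2A1 had 9344 bp in hypoxia and 7876 bp in normoxia, and BHLHE40, a repressor, 6943 and 5521 bp. DDIT4, an inhibitor of mTOR signalling, had a TSS peak of 507 bp in hypoxia and none in normoxia. Its covered length over all annotated peaks was 5599 bp in hypoxia and 3124 bp in normoxia.

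The genes for the enzymes that write and erase the mark are too few to set apart from the background of 4.8% higher and 2.17% lower. Of 10 H3K4 methyltransferases and complex subunits none was past 2-fold at the same place, and 7 were higher and 2 lower in hypoxia. The subunit DPY30 had 5538 bp in hypoxia and 4145 bp in normoxia, the subunit RBBP5 1366 and 2627 bp, and the methyltransferase SETD1A 11106 and 9862 bp. Of 5 H3K4 demethylases none was past 2-fold at the same place either. KDM5B came nearest, with 7303 bp in hypoxia (chr26:540800-548102) and 3671 bp in normoxia, a log2 ratio of 0.99, and KDM1A, which needs a flavin cofactor, had 1870 and 1098 bp. KDM5A had 6613 bp in hypoxia and 6716 bp in normoxia. Among 13 other demethylases that use oxygen, the values ran from a log2 ratio of -0.43 at KDM7A to 0.89 at KDM2A, where 1962 bp in hypoxia stood against 1059 bp in normoxia. KDM6A, which removes methyl groups from H3K27, had 5915 and 5782 bp. By covered length, 1 of 12 methyltransferase and subunit genes, 1 of 5 H3K4 demethylases and 2 of 14 other demethylases were past 2-fold higher. In each group 0 were past 2-fold lower, and over all genes the shares were 7.44% and 4.36%. The 1 gene of the 12 was ASH1L, which is not part of the KMT2 and SETD1 complexes, with a covered length of 4634 bp in hypoxia and 707 bp in normoxia. The H3K4 demethylase gene was KDM5B, with 8782 and 3878 bp.

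Lens fiber structural genes had a median ratio at the same place close to that of all genes. Of 20 with a start in both lists, 17 were higher and 3 lower in hypoxia, with a median log2 ratio of 0.15, beside 61.1% higher and a median of 0.11 over all genes. CRYBB2, a beta crystallin, was past 2-fold, with 2617 bp in hypoxia and 1037 bp in normoxia. CRYBB3 had a TSS peak of 1787 bp in hypoxia and none in normoxia, and CRYBB1 had 5506 bp in hypoxia and 3076 bp in normoxia. At ASL1 (delta crystallin) the peak was 34865 bp wide in hypoxia and 8307 bp in normoxia, but the same place held 34865 and 30967 bp. CRYAB, a small heat shock protein and crystallin, had 6165 bp in hypoxia and 4521 bp in normoxia. Lower in hypoxia were CRYGS, with 1770 and 2785 bp, CRYBA1, with 2156 and 2753 bp, and ASL2, with 6059 and 6812 bp. CRYAA had no peak within 1000 bp of its TSS in either list, and its annotated peaks covered 9164 bp in hypoxia and 4180 bp in normoxia. By covered length the median log2 ratio of 24 fiber genes was 0.39, beside 0.12 over all genes. Of the 24, 4 (CRYAA, CRYBB1, CRYBB2 and ASL1) were at least 2 times higher and 0 at most 1/2 as high. Over all genes these shares were 7.44% and 4.36%. Covered length depends on the gene to which a peak is assigned.

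Among 20 lens transcription factors with a start in both lists none was past 2-fold, where 4.8% of all genes were higher and 2.17% lower by that much. In hypoxia 16 were higher and 4 lower, with a median log2 ratio of 0.12 beside 0.11 over all genes. Several of them have starts in the widest size class, where no gene was past 2-fold. SOX2, a factor of early lens induction, had 32256 bp in hypoxia and 32332 bp in normoxia, and PROX1, a factor of fiber differentiation, 19056 and 18599 bp. PAX6, a regulator of eye development, had 20562 bp in hypoxia and 19507 bp in normoxia. HSF2, a heat shock factor, had 5325 and 3174 bp. SIX3, a homeobox regulator of the eye field, had 22396 bp in hypoxia and 23966 bp in normoxia.

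A few immediate early and stress response genes had starts past 2-fold higher in hypoxia, and others were lower. Of 24 immediate early genes, which respond to stimuli without new protein synthesis, 3 were past 2-fold higher, all of the EGR family. Besides EGR3, these were EGR1 with 3054 bp in hypoxia and 1490 bp in normoxia and EGR2 with 2067 and 974 bp. At EGR2 the hypoxia peak crossed the TSS, while the normoxia peak lay 967 bp from it. KLF4, a transcription factor of epithelia, was past 2-fold lower, with 1133 bp in hypoxia and 2626 bp in normoxia. FOS had 7011 and 5297 bp, MYC 7726 and 5513 bp, and JUN, lower in hypoxia, 5685 and 6481 bp. Of 31 genes of the heat shock and unfolded protein responses, 3 were past 2-fold higher in hypoxia and 0 lower. They were the co-chaperone genes DNAJB1, with 4086 bp in hypoxia (chr30:877904-881989) and 1259 bp in normoxia, and DNAJA1, with 3981 and 1779 bp, and ATF4, a factor of the integrated stress response, with 6365 bp in hypoxia and 2855 bp in normoxia. In all, 21 of the 31 were higher and 10 lower, where 61.1% of all genes were higher. Lower in hypoxia were HSPA5, the main chaperone of the endoplasmic reticulum, with 3582 and 4380 bp, and the cytosolic chaperone HSP90AB1, with 2665 and 3314 bp. The medians of these lists were 0.22 and 0.11. Counts of 3 among 24 and 3 among 31 genes stand beside 4.8% over all genes, and the lower counts of 1 and 0 beside 2.17%. Both lists are too short to set apart from these shares.

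Genes of energy use and organelle removal had few members past 2-fold, in both directions. Past 2-fold higher were 1 of 24 respiratory chain, 1 of 21 glycolysis and 1 of 33 autophagy genes, and past 2-fold lower 0, 0 and 2. Over all genes these shares were 4.8% and 2.17%. The counts below stand beside 61.1% higher in hypoxia and a median log2 ratio of 0.11 over all genes. Of 24 respiratory chain genes, 16 were higher and 8 lower in hypoxia, with a median log2 ratio of 0.29. UQCRC1 of complex III had 1813 bp in hypoxia and 749 bp in normoxia, SDHD of complex II 2133 and 1143 bp, and COX5A of complex IV 1104 bp in hypoxia against 1984 bp in normoxia. Of 21 genes of glycolysis and glucose transport, 12 were higher and 9 lower, and the median was 0.02. Of 33 mitophagy and autophagy genes, 21 were higher and 11 lower. MAP1LC3C, which encodes a protein of the autophagosome membrane, had 1241 bp in hypoxia and 342 bp in normoxia. ATG7, an enzyme that activates autophagy proteins for lipid attachment, had 840 and 2112 bp, and ATG14, a subunit of an autophagy lipid kinase, 1187 bp in hypoxia and 2418 bp in normoxia. BNIP3L, a receptor for the removal of mitochondria, had 7413 and 6467 bp.

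Signalling and cell cycle genes held differences in both directions, where 61.1% of all genes were higher in hypoxia and the median log2 ratio over all genes was 0.11. Past 2-fold higher were 2 of 45 signalling and 2 of 21 cell cycle genes, and past 2-fold lower 1 and 0. Over all genes these shares were 4.8% and 2.17%. Of 45 genes of the FGF, BMP, Notch and Wnt pathways, 33 were higher and 12 lower in hypoxia. The receptor NOTCH1 had 5754 bp in hypoxia and 2830 bp in normoxia, and HES1, a repressor that Notch induces, 4049 and 1921 bp. The receptor FGFR1 had 5380 bp in hypoxia and 2779 bp in normoxia, a log2 ratio of 0.95. The ligand FGF8 was past 2-fold lower, with 457 and 1364 bp, and the ligand FGF2 had 3308 bp in hypoxia against 5019 bp in normoxia. Of 21 FOXO factors, CDK inhibitors, cyclins and related cell cycle genes, 10 were higher and 11 lower, with a median of -0.03. TOP2A, a topoisomerase of dividing cells, had 2050 bp in hypoxia and 791 bp in normoxia, and the proliferation marker MKI67 had 1527 and 738 bp. CDKN1B, the inhibitor p27, had 7633 bp in hypoxia and 9292 bp in normoxia, and RBL1, a relative of the retinoblastoma protein, 1530 and 2741 bp.

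Among antioxidant and ribosomal genes, 2 of 18 and 3 of 58 starts were at least 2 times higher in hypoxia and 0 at most 1/2 as high. Over all genes these shares were 4.8% and 2.17%, and the lists are too short to set apart from them. Of all genes, 61.1% were higher in hypoxia, and the median log2 ratio was 0.11. Of 18 antioxidant and heme genes, 8 were higher and 10 lower. The mitochondrial superoxide dismutase SOD2 had 2254 bp in hypoxia and 878 bp in normoxia, and NFE2L2, the factor NRF2 that induces antioxidant genes, 6488 and 2962 bp. Of 58 cytosolic ribosomal protein genes, 36 were higher and 22 lower in hypoxia, with a median log2 ratio of 0.15. Past 2-fold were RPL15, with 5432 bp in hypoxia and 1825 bp in normoxia, RPS23, with 2913 and 1351 bp, and RPS15A, with 4450 and 2178 bp. RPL13 had 1767 bp in hypoxia against 2964 bp in normoxia. Of 39 HOX symbols listed, 1 was found among the genes that the table names, and it had no TSS peak in either list.

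Taken as 1 set, the 372 listed genes with a start in both lists had 20 (5.38%) at least 2 times higher in hypoxia and 5 (1.34%) at most 1/2 as high. Over all genes these shares were 4.8% and 2.17%, so the lists as a whole lay near the background, and a median log2 ratio of 0.14 stood beside 0.11.

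**Figure D5:**
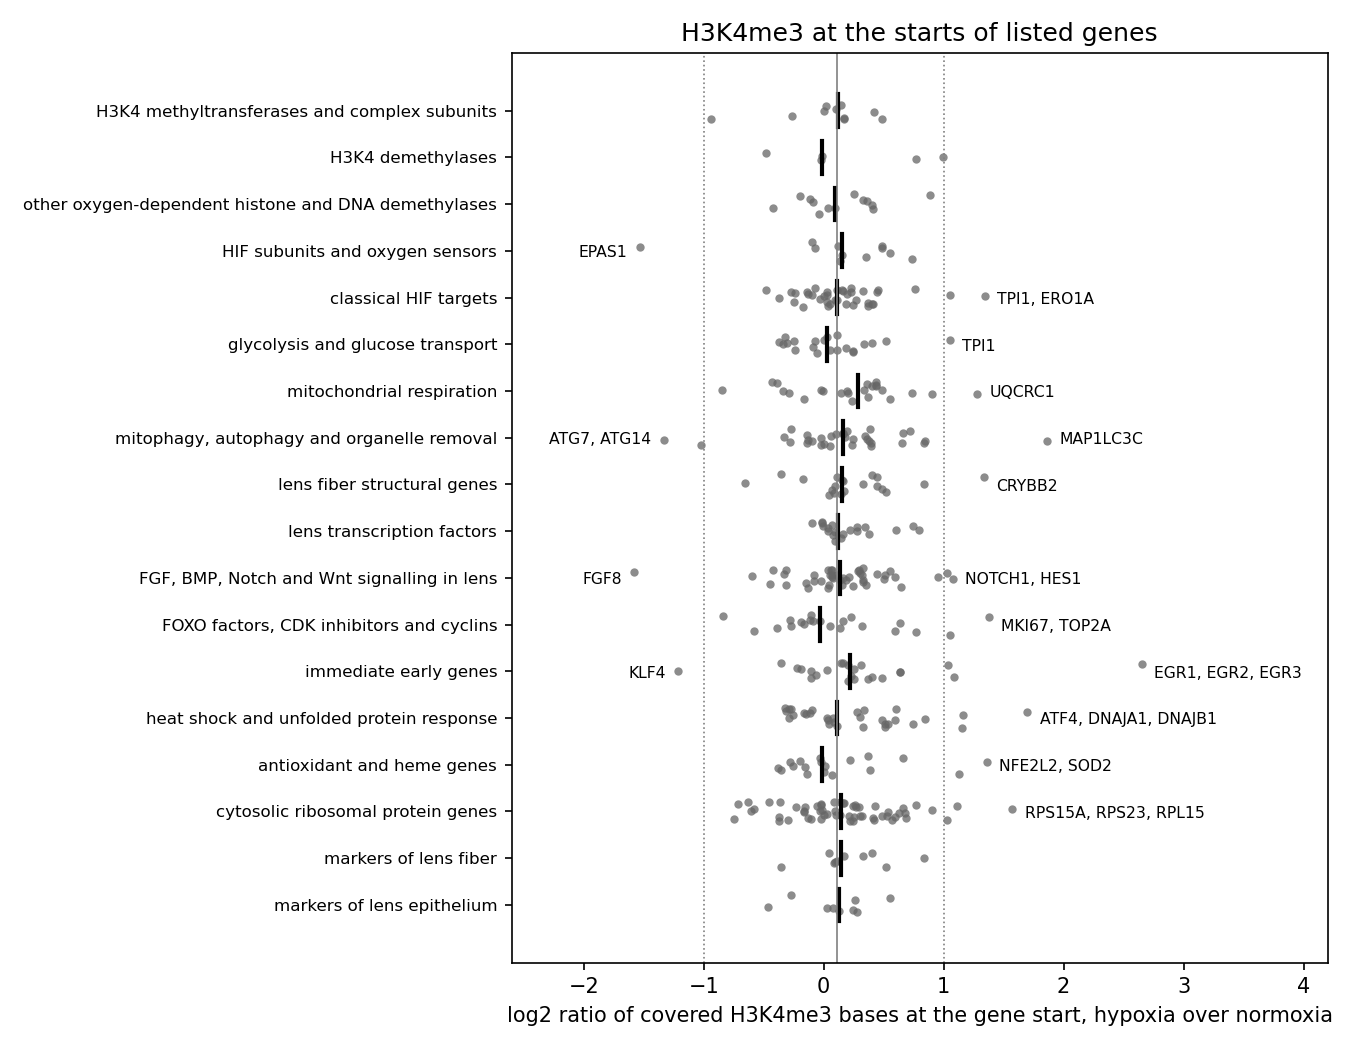
Log2 ratio of covered H3K4me3 bases at the same place, hypoxia over normoxia (horizontal axis), for each listed gene with a TSS peak in both lists (points, spread vertically for legibility). Thick bars mark each list's median, the grey line the median of all genes (0.11) and dotted lines 2-fold, with the genes past 2-fold named in order from left to right. Medians of the lists drawn lie between -0.03 and 0.29. Lists with fewer than 5 genes with a TSS peak in both lists are not drawn.

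The cell type label was checked against marker genes. Of 14 fiber markers, 10 had a TSS peak in both lists, among them BFSP1, with 18179 bp in hypoxia and 14505 bp in normoxia, and MIP. Of 12 epithelial markers 9 had one in both lists, so the epithelial genes also carried the mark. Of these 9, 7 were higher and 2 lower in hypoxia, with a median log2 ratio of 0.12 beside 0.11 over all genes. CDH1, which joins epithelial cells, was not among the 9, with 0 bp at its start in hypoxia and a peak of 562 bp in normoxia. PDPN likewise had 0 and 655 bp. A TSS peak in both lists was found for 3 of 24 retinal and neuronal, 2 of 19 blood and endothelial, 3 of 15 corneal and periocular mesenchyme and 1 of 10 pigment epithelium markers. Of these symbols, the table names 13, 11, 9 and 7 in the same order, since it lists only genes with a peak of either mark and some symbols may differ. Of the retinal markers, NEFL, a neurofilament gene, had 1382 bp in hypoxia and 2446 bp in normoxia, and GAP43 778 and 0 bp. The mesenchymal COL1A2 had 0 bp in hypoxia and 686 bp in normoxia, while the 3 mesenchymal markers with a TSS peak in both lists were all higher in hypoxia. The part of other cells in the differences was not tested.

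Over all peaks annotated to a gene the picture was close to that at the starts. Among 11063 genes with any peak in both lists, the covered length had a median of 2816 bp in hypoxia and 2578 bp in normoxia, a median log2 ratio of 0.12, and was higher in hypoxia at 60.1% of genes. It was at least 2 times as high at 823 genes (7.44%) and at most 1/2 as high at 482 (4.36%). Centred on the median, these counts were 653 and 598. The 823 genes had 3192 kb in hypoxia and 1143 kb in normoxia, of which TSS peaks held 2269 and 849 kb. The 482 genes had 486 kb in hypoxia and 1314 kb in normoxia, with 320 and 829 kb in TSS peaks. Peaks that serve several genes count for each of them in these sums.

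A few genes differed in covered length away from their starts. GALNT10, a glycosyltransferase gene, had 4 peaks over 4896 bp in hypoxia and 1 of 360 bp in normoxia, none at the TSS. NIM1K, a kinase gene, had 4641 bp in hypoxia and 310 bp in normoxia, likewise without a TSS peak. RFX6, a transcription factor of the pancreas and gut, had 471 bp in hypoxia in 2 peaks and 4465 bp in normoxia in 5 peaks, again with none at the TSS. Several others kept a peak of their own at the start in both lists, and in 1 list further bases of the same place were assigned to another gene. PRPF19, a splicing factor gene, had a covered length of 4655 bp in hypoxia and 410 bp in normoxia, and 4655 and 3032 bp at the same place. NDUFB10 of respiratory complex I had 1267 bp in hypoxia and 7032 bp in normoxia, and 6075 and 7032 bp at the same place.

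A start with the mark in 1 list alone was rare and its peak mostly narrow. Of 10289 genes with any TSS peak, 9366 (91.0%) had one in both lists, 433 (4.21%, 3.84 to 4.61%) in hypoxia alone and 273 (2.65%, 2.36 to 2.98%) in normoxia alone. For a further 217 the TSS peak of 1 list overlapped a peak of the other list that was not a TSS peak of that gene. Median widths were 471 bp for hypoxia alone and 466 bp for normoxia alone, and 58 and 31 genes reached 1000 bp. No peak anywhere in the other list was annotated to 268 of the 433 genes and to 156 of the 273.

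The widest of these starts differed in whether acetylation accompanied them. At ZNF532, a zinc finger gene, H3K4me3 covered 3640 bp in hypoxia and none in normoxia, and the H3K27ac TSS peaks were 6000 bp in hypoxia and 803 bp in normoxia. At CLIP1, a gene for a protein of growing microtubule ends, 2482 bp of H3K4me3 in hypoxia came with 3046 bp of H3K27ac in hypoxia and none in normoxia. At the Wnt receptor gene RYK the H3K27ac peaks were of like width, with 2675 bp in hypoxia against 2725 bp in normoxia, and FGF19 had no H3K27ac peak in either list. FAM189A1, with a TSS peak of 2470 bp in hypoxia alone, had 26812 bp of H3K4me3 in hypoxia and 24911 bp in normoxia over all its peaks. CLIP1, whose TSS peak lay at -984 bp from the TSS, had 13475 and 9270 bp over all its peaks, and RYK 5941 and 4612 bp. These genes thus carried the mark elsewhere in normoxia. Among starts in normoxia alone, FOXO1, LMOD2 and LAMP5 had no H3K27ac TSS peak in either list, and PPIL6 had none in hypoxia and one of 834 bp in normoxia. SH3BGRL2 had one of 174 bp in hypoxia and SYT10 one of 279 bp in hypoxia, and neither had one in normoxia. Over all its peaks SH3BGRL2 had 13402 bp of H3K4me3 in hypoxia and 14161 bp in normoxia. Over all genes of each kind, an H3K27ac TSS peak was listed in hypoxia for 34.6% of the starts with H3K4me3 in hypoxia alone, for 19.4% of those in normoxia alone and for 67.8% of those in both. In normoxia the shares were 13.6%, 7.69% and 39.5%.

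Acetylation was set beside the H3K4me3 classes as a readout that did not choose them. Of the 450 starts at least 2 times higher in hypoxia, 58.9% (54.3 to 63.3%) had an H3K27ac TSS peak in hypoxia and 27.6% (23.6 to 31.9%) in normoxia. Of the 203 at most 1/2 as high, 34.0% (27.8 to 40.7%) had one in hypoxia and 17.7% (13.1 to 23.6%) in normoxia. Of the 8713 between, 69.0% and 40.6% did. The classes differ in width, so starts of 1000 to 2000 bp mean width were also compared. In hypoxia the shares were then 61.3% (54.2 to 67.9%) of 191 higher, 47.4% (36.5 to 58.4%) of 76 lower and 63.2% (61.2 to 65.0%) of 2456 between. In normoxia they were 25.1%, 21.1% and 33.4%. Among genes with H3K27ac peaks in both lists, the median log2 ratio of H3K27ac covered length was 1.497 (1.31 to 1.68) for 208 genes with higher H3K4me3, 0.81 (0.44 to 1.32) for 70 with lower and 1.55 (1.52 to 1.60) for 5131 between. At 1000 to 2000 bp mean width these medians were 1.34 (0.91 to 1.75) for 78 higher, 0.99 (-0.13 to 1.80) for 25 lower and 1.47 (1.38 to 1.56) for 1157 between, with intervals that overlap. Across the 5409 genes with H3K27ac peaks in both lists, the ratios of the 2 marks had a Spearman rank correlation of 0.05 and a Pearson correlation of 0.04. These are too weak to call a relation in this measure. The genes share libraries and are not replicates, and genes without H3K27ac in both lists are left out. The H3K27ac ratio takes in all peaks annotated to a gene, and a relation with H3K27ac at the starts alone was not tested.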

How the data were processed

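CUT&RUN libraries for H3K4me3 (3 per condition) and H3K27ac (2 per condition) stand behind the 4 peak lists of the deposited table, which per the file headers gives each peak's chromosome, start, end, gene, transcript and signed distance to the TSS, and per the labels belongs to lens fiber cells at 1% or 21% oxygen. Per the submitters' processing notes, the build was galGal6 and the tools included MACS2, ChIPseeker, STAR and DESeq2, without versions or roles. The sources used here do not say whether the authors called peaks per library or on pooled reads, with which threshold or against which control. Peak widths depend on read depth, background and the calling threshold, none of which can be checked. IgG was not analysed here.

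Of 124414 lines, 15894 repeat an interval within a list. These were dropped where peaks and bases were counted, while for values per gene each interval was kept once for every gene ID it is tied to. Widths are end minus start as deposited by the authors, whose starts count from 0; printed starts count from 1 and so are 1 higher. Ratios were computed in Python 3.11.15 with pandas 2.3.3, numpy 2.4.6 and scipy 1.17.1, without pseudocount, over genes present in both lists. Shares have Wilson 95% intervals and medians have intervals from binomial ranks. The steps for widths, matching by position and inferred starts were tested on simulated lists of known widths. Each simulated gene had a single start and a single TSS peak per list, so split, shared or neighbour-assigned peaks were not covered. Alternatives changed the TSS window, the choice of peak, a width minimum, joining of close peaks, centring, matching by position, the genes kept and the fold.

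The comparison, the 17 gene lists, the 6 marker lists and the rules for naming genes were chosen with earlier results of these data known. Of 585 listed genes, 457 were found by symbol, 1 of them by an older symbol. Named were the 10 highest and 10 lowest ratios of TSS width (mean at least 1000 bp), the 8 highest and lowest of covered length (mean at least 2000 bp), the 6 widest starts of each list alone, up to 2 list members per direction and a few fixed genes. A few genes that the rule names are not reported here. The 16 highest and 16 lowest at the same place (genes with a symbol of their own and a mean of at least 1000 bp there), and further list members, were chosen after their values were seen. No sequences are shown, since no genome of this build was used here.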

Additional observations from a re-analysis of the deposited data

How the results depend on the processing

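Of 76 values recomputed under other settings, 64 stayed within 1.5 times the reported count or, for medians and shares, within the reported 95% interval, and 12 moved outside. A change of direction was defined for the median log2 ratios alone, and none of these changed sign. With peaks of at least 500 bp alone, 207 TSS peaks were at most 1/2 as wide in hypoxia and 286 genes had at most 1/2 the covered length. With peaks closer than 1000 bp joined, the median log2 ratio was 0.13 for TSS width and 0.13 for covered length, and 62.4% of TSS peaks were wider in hypoxia. Matched by position, 203 starts were at most 1/2 as high. At a fold of 1.5, which by its construction takes in more genes, 1655 TSS peaks were wider and 806 narrower in hypoxia, and covered length was higher at 2121 and lower at 1111 genes. With the peak over the inferred start, a setting chosen after seeing the data that leaves 5297 genes, 281 were at least 2 times as wide and 100 at most 1/2 as wide. For the other moves the cause was not tested. No paired analysis was possible because the lists hold no value per library, and leaving out single replicates could not be run for the same reason. Read depth, peak height and the spread between lenses are unknown, so a difference in depth or background between conditions cannot be told apart from a difference in the mark.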
